A study of Mus musculus with 3 samples.

Results

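Mouse embryonic stem cells that lost Pcgf6 and then received a Flag-tagged copy of the gene were compared here with wildtype cells. The aim was to describe which transcripts differed from wildtype after the gene was put back. The 2 arrays labelled Pcgf6KO+ Pcgf6_flag and wildtype were used, of 3 in the series, and the array labelled Pcgf6KO is given beside them for reference. A probe was taken into the comparison where its signal was well above the local background on at least 1 of the 2 arrays, which held for 37510 of 55681 probes. All 3 groups were labelled as male embryonic stem cells. They were grown in serum and leukemia inhibitory factor on a layer of mouse embryonic fibroblasts whose division had been stopped with mitomycin-C. The knockout was made with Cas9, and the line that re-expresses Pcgf6 was made from it by lentiviral infection. The deleted stretch, the promoter of the lentiviral copy and the number of clones were not given in the sources used here.

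Each group was a single array of total RNA, so the comparison has no replicate check, and the sizes below carry no test. Spots of the same probe repeated on each array gave the technical scale: the difference between the 2 arrays had an SD of 0.12 log2 units over single spots of 290 probes. That figure holds neither culture nor labelling error. The wildtype and Pcgf6KO arrays lay on slide 1 and the array labelled Pcgf6KO+ Pcgf6_flag on slide 2, so that slide and group cannot be told apart. Fewer probes were detected on the array labelled Pcgf6KO+ Pcgf6_flag (60.7%) than on wildtype (65.3%), and 3720 probes were above background on wildtype alone against 1149 on the other array alone. The lowest signal that counted as above background was 103 on the array labelled Pcgf6KO+ Pcgf6_flag and 52.7 on wildtype.

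Pcgf6 is the subunit that defines PRC1.6, a variant Polycomb repressive complex that carries the ubiquitin ligases Ring1 and Rnf2, which modify histone H2A. The complex reaches DNA through the paired factors Mga and Max, which read the E-box CACGTG, and through E2f6 with a Dp partner, which reads E2F motifs such as GCGGGAA. In embryonic stem cells it is known for keeping genes of germ cells and meiosis silent, and loss of its subunits is known to raise many of them.

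Levels below are log2 signals relative to the 75th percentile of the same array, so that 0 is that percentile, and are given in the order wildtype, Pcgf6KO, Pcgf6KO+ Pcgf6_flag. A difference is the array labelled Pcgf6KO+ Pcgf6_flag minus wildtype. The single Pcgf6 probe read 1.87, 0.84 and 0.42, a difference of -1.45. It was therefore lowest on the array labelled as re-expressing the gene, 2.73-fold below wildtype. The sources used here do not say whether this probe lies in the deleted stretch or in the lentiviral copy, so it does not check the labels, and the array is called by its label throughout. The other 13 subunits on the PRC1.6 list all lay within 2-fold of wildtype. Yaf2, which bridges to the ubiquitin ligase, read 0.11, 0.80 and -0.36. The DNA-binding factor E2f6 read 1.76, 2.32 and 1.54, and Wdr5, a scaffold shared with other chromatin complexes, read 1.64, 1.69 and 1.98. Mga read 0.72, 0.37 and 0.42, and Cbx3, a heterochromatin protein that binds methylated H3K9, read 3.19, 3.31 and 3.34.

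Across the transcriptome the arrays were close at high signal and scattered at low signal. Of 15591 genes measured, 14197 were above background on both arrays, and their median difference was -0.02. A difference of 2-fold or more was the call used: 698 genes (4.92%) were higher on the array labelled Pcgf6KO+ Pcgf6_flag and 680 (4.79%) were lower. Among the 7099 genes at or above the median signal only 42 were higher and 69 lower, or 0.59% and 0.97%. Among the 7098 dimmer genes the shares were 9.24% and 8.61%, and these are the shares to hold against any list of dim genes. A further 1394 genes were above background on 1 of the 2 arrays. For these the difference has only a bound, taken against the higher of the probe's own signal and the lowest signal that counted as above background on the dim array, and written as "at least". Of the 260 above background on the array labelled Pcgf6KO+ Pcgf6_flag alone, 214 stood 2-fold or more above wildtype by that bound. Of the 1134 above background on wildtype alone, 296 stood 2-fold or more below it. These are 15.4% and 21.2% of all 1394, but each direction can come only from its own side. The balance depended on the scaling: 50.7% of the genes called were higher with the 75th percentile, 39.5% with the median of each array and 70.6% with no scaling.

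**Figure D1:**
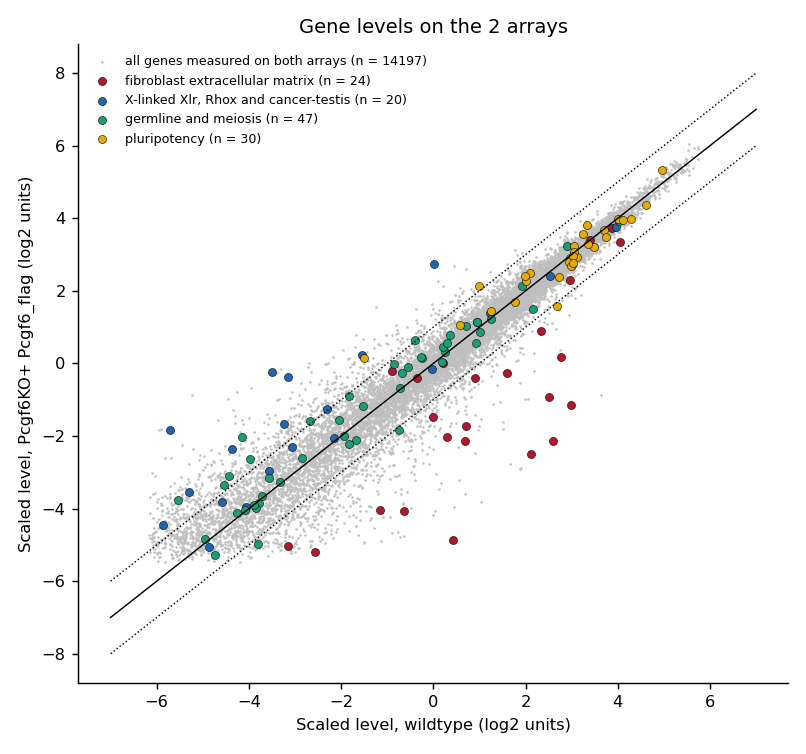
Level of each gene above background on both arrays, wildtype on the x axis and Pcgf6KO+ Pcgf6_flag on the y axis, both in log2 units relative to the 75th percentile of the array. Grey points are the 14197 genes, colours mark members of 4 lists, the solid line is equality and the dotted lines are 2-fold. The spread is widest at low levels, and many fibroblast matrix genes lie below the lower 2-fold line, among them Fbln2 at a difference of -4.15 and Col1a1 at -3.43.

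The genes higher than wildtype at good signal were led by Fmr1nb, an X-linked cancer-testis gene, which read 0.01, 2.88 and 2.74. Its difference was 2.73, or 6.65-fold, and its level was close to that of the Pcgf6KO array. Zcchc10, a zinc-finger protein gene, read 0.44, 2.23 and 2.69, a difference of 2.24. Gstm3, a glutathione transferase, read 0.10, 0.95 and 2.28, with differences of 1.63 and 2.18 from its 2 probes. Lhx1, a transcription factor of the early axial mesoderm, read -0.37, 0.08 and 1.48. The keratinocyte gene Krtdap read 0.71, 1.67 and 2.61, and Rec114, which helps to start meiotic recombination, read 0.57, 1.26 and 2.07. For these genes the Pcgf6KO array lay between the other arrays or close to the array labelled Pcgf6KO+ Pcgf6_flag. Anxa8, a membrane-binding annexin, and Gna15, a G-protein subunit, were different: they read 0.48, 0.00 and 1.88, and -0.05, -0.51 and 1.33, with Pcgf6KO the lowest. The rest of the 15 largest increases were Ly6g6e, Plaat3, H3c3, Nppb, Cyp2s1, Myl4 and Selenov, with differences from 1.34 to 1.68.

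The genes lower than wildtype spanned a wider range. Acta2, the smooth-muscle actin of contractile cells, read 3.64, 1.01 and -0.87, a difference of -4.52 or 22.9-fold. Fbln2, a matrix glycoprotein, read 2.99, -0.75 and -1.16, and Col1a1, a chain of type I collagen, read 2.51, 1.58 and -0.93. On all 3 of these probes wildtype was the highest array and Pcgf6KO+ Pcgf6_flag the lowest. The secreted protease Prss23 (difference -3.03), cyclin D2 (Ccnd2, -2.97), the matricellular protein Thbs1 (-2.61), the lysophospholipase Enpp2 (-2.42) and the metalloproteinase inhibitor Timp2 (-2.40) were also far below wildtype. Tmem54, Timp3, Pwwp2b, Spink1 and Emp3 were among the 15 largest decreases too, from -1.89 to -1.73.

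Genes not above background on the array labelled Pcgf6KO+ Pcgf6_flag had the largest gaps of all. Inhba, the activin A subunit, gave signals of 21973, 919 and 56.0 and was at least 251-fold lower than wildtype. Tm4sf1, a membrane protein, was at least 202-fold lower, the proliferin Prl2c5 at least 128-fold, the matrix protein Mgp at least 82.8-fold, the neuropeptide precursor Cck at least 61.7-fold and the caveolar protein Cavin2 at least 49.5-fold. These genes were far below wildtype on Pcgf6KO too. Tm4sf1 gave 492 there, against 17648 on wildtype. Prl2c5, Mgp, Cck and Cavin2 gave 70.5, 61.8, 79.7 and 105 on Pcgf6KO. Their wildtype signals were 11172, 7241, 5391 and 4326. In the other direction the bounds were smaller. The hair keratin-associated gene Krtap11-1 was at least 17.6-fold higher, and Xlr5c and Xlr5b, lymphocyte-regulated X-linked genes, at least 16.2-fold and 11.7-fold. Prss21, a testis serine protease, was at least 10.8-fold higher and Klrb1b at least 8.10-fold.

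A few promoters are shown before the values, since the complex is known to reach germ-cell genes through the E-box and E2F motifs. In the RefSeq promoter table (build GRCm38.p6), the 250 bases before the start were searched on both strands for CACGTG and for GCGGGAA, which do not overlap each other. Of 32851 promoters, 6.02% held CACGTG, 3.82% held GCGGGAA and 0.34% held both. The germline list had 45 of 50 measured genes in the table, with 57 promoters, of which 20 (35.1%) held CACGTG, 13 (22.8%) held GCGGGAA and 6 (10.5%) held both. The X-linked list had 21 of 23 genes and 22 promoters, of which 2 held each motif and 0 held both. None of the 12 promoters of its members past 2-fold higher held either. Several of those 12 belong to Xlr copies, so they are not independent. At the shares over all genes given next, few matches among 12 would be expected. Across all genes past 2-fold higher the shares were 5.56% and 4.63%, and past 2-fold lower 7.45% and 5.02%, against 8.11% and 6.52% for all genes measured on both arrays. The 150 bases just before the start are printed 5′ to 3′ on the gene's own strand, with motif matches in capitals. The windows of Ddx4, Tex12 and Sycp3 hold both motifs, and those of the X-linked Xlr4b and Fmr1nb hold neither. They are Ddx4 at chr13:112652311-112652460 (minus strand), Tex12 at chr9:50561269-50561418 (minus), Sycp3 at chr10:88459437-88459586 (plus), Xlr4b at chrX:73214183-73214332 (plus) and Fmr1nb at chrX:68761689-68761838 (plus).
Ddx4: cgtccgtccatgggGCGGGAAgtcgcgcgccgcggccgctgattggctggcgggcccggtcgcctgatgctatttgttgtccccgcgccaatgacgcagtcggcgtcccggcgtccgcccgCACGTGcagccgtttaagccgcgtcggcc
Tex12: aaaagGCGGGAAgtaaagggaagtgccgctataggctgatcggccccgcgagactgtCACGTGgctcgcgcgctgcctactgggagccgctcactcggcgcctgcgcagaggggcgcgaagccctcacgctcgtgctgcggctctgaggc
Sycp3: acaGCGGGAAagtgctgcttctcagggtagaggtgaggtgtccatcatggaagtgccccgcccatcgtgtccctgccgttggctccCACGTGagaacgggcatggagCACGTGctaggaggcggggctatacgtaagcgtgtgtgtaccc
Xlr4b: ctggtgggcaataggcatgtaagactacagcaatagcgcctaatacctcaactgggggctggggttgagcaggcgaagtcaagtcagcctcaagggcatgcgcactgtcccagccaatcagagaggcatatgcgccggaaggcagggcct
Fmr1nb: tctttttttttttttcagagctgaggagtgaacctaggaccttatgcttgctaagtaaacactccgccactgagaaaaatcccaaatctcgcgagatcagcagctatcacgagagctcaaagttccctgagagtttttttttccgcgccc
A match describes the letters of the window and is not evidence that a factor binds there.

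Most germline and meiosis genes lay within 2-fold of wildtype on the array labelled Pcgf6KO+ Pcgf6_flag, as did most dimmer genes at large. Of 58 listed, 50 were measured and 47 were above background on both arrays. Among those 47, 7 were 2-fold higher and 2 were 2-fold lower, and 33 had a difference above 0. Over all dimmer genes 9.24% were higher and 8.61% lower. The list's median difference was 0.18, against -0.02 over all genes. Its median level was -1.75 on wildtype, -0.18 on Pcgf6KO and -1.58 on the array labelled Pcgf6KO+ Pcgf6_flag, which places most members among the dimmer genes.

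List members known from the piRNA pathway, the small-RNA defence of the germline against transposons, were grouped after their values were seen, and those above background on both arrays lay within 2-fold of wildtype. So did most genes at large, as 17.85% of all dimmer genes and 1.56% of brighter ones passed 2-fold. Tdrkh, a Tudor-domain scaffold of piRNA processing, read -3.33, 0.54 and -3.28, a difference of 0.05. Mael read 0.93, 3.12 and 0.57, Mov10l1, the helicase that feeds piRNA precursors, read -3.85, -1.56 and -4.00, and the Piwi protein gene Piwil2 read 0.29, 2.16 and 0.55. The germ-cell helicase Ddx4, whose window is printed above, read 1.01, 1.93 and 0.86. In these 5 genes and in Tdrd5 (-0.68, -0.17 and -0.27) the Pcgf6KO level was the highest. Tdrd12 read 1.92, 1.30 and 2.13, with Pcgf6KO the lowest, and Pld6 read -0.28, 0.04 and 0.19, with the array labelled Pcgf6KO+ Pcgf6_flag the highest. The RNA helicase Mov10, a relative of Mov10l1, also had Pcgf6KO the lowest, at 2.90, 2.05 and 3.24. Tdrd1 was above background on wildtype and not on the array labelled Pcgf6KO+ Pcgf6_flag, with a bound of only 1.12-fold.

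Meiotic genes were more mixed. Tex12, which encodes a central element of the synaptonemal complex that joins paired chromosomes, read -5.53, -3.08 and -3.77, a difference of 1.76. Its partner Syce3 read -0.41, 1.56 and 0.65, a difference of 1.06, whereas Syce1 read 1.26, 2.83 and 1.22 and Sycp3 read 0.95, 1.58 and 1.15. Hormad2, an axis protein that monitors synapsis, read -3.99, -1.10 and -2.64, and Tex11, an X-linked gene needed for meiotic crossovers, read -2.67, 0.68 and -1.59. In Tex12, Syce3, Hormad2 and Tex11 the array labelled Pcgf6KO+ Pcgf6_flag lay between the other arrays. The mismatch-repair homologues Msh4 and Msh5, which stabilise crossovers, and Majin, which tethers telomeres to the nuclear envelope, did not follow that order. Msh4 read -4.15, -4.35 and -2.02, a difference of 2.13, Msh5 read -4.43, -4.27 and -3.10, and Majin read -4.54, -4.16 and -3.34. On these 3 dim probes Pcgf6KO lay near wildtype and the array labelled Pcgf6KO+ Pcgf6_flag alone was high; Majin gave 0.96 with another background correction.

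The members past 2-fold lower were Figla and Cpeb1, 2 of 47, a share not above the 8.61% of all dimmer genes, and Zar1 by its bound. Figla, a transcription factor of the oocyte, read -3.80, -1.56 and -4.98, a difference of -1.18. Cpeb1, which controls the poly(A) tails of stored maternal messages, read -0.74, 0.91 and -1.84, a difference of -1.10. Zar1, a maternal-effect gene, was at least 3.11-fold lower, with levels of -3.85 and -0.64 on the first 2 arrays. For all 3 genes wildtype lay between a high Pcgf6KO array and a low array labelled Pcgf6KO+ Pcgf6_flag. Other germ-cell regulators lay within 2-fold of wildtype. Nobox, another oocyte factor, read -4.74, -3.22 and -5.27, Dazl read -2.04, -1.26 and -1.56, Stk31 read -1.82, -0.20 and -2.23, Sohlh2 read -0.72, 1.73 and -0.67, and the sperm-surface gene Tex101 read -1.52, 1.35 and -1.17. Mei1, Brdt, Boll and Slc25a31 differed from wildtype by between -0.07 and 0.16.

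The X-linked Xlr, Rhox and cancer-testis genes were the list that stayed furthest above wildtype. Of 23 members measured, 20 were above background on both arrays. Of those, 10 were 2-fold higher and 0 lower, and 2 more were higher by their bound. Among all dimmer genes the shares were 9.24% higher and 8.61% lower. By their bound, 214 of all 260 genes above background on the array labelled Pcgf6KO+ Pcgf6_flag alone were higher, so those 2 are not unusual. The list's median difference was 1.05. Its median level was -3.49 on wildtype, 0.28 on Pcgf6KO and -2.04 on the array labelled Pcgf6KO+ Pcgf6_flag. Restricting the data to bright probes left a median of 0.02, so the brighter members as a set did not share the median of 1.05. Most members are dim.

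Among the Xlr genes, a family related to the synaptonemal complex protein Sycp3, every measured member was higher on the array labelled Pcgf6KO+ Pcgf6_flag than on wildtype and lower than on Pcgf6KO. Xlr4b, printed above, read -3.49, 2.87 and -0.25, a difference of 3.24 or 9.45-fold. Xlr4a read -3.16, 2.39 and -0.38, Xlr3b read -1.54, 2.80 and 0.23, Xlr3a read -3.24, 1.85 and -1.68, and Xlr read -3.07, 0.06 and -2.30. These genes are near-identical copies, so probes may read several of them and their values are not independent. Other cancer-testis members showed the same order: Luzp4 read -4.37, 1.99 and -2.37, Mageb4 read -5.31, -0.20 and -3.55, and Ct55 read -4.58, 0.28 and -3.81. Usp26, a testis deubiquitinase, broke it, at -5.72, -4.29 and -1.85, with a difference of 3.88 and its highest level on the array labelled Pcgf6KO+ Pcgf6_flag.

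The Rhox homeobox genes, a cluster expressed in reproductive tissue and placenta, were split. Rhox1 and Rhox13 were 2-fold higher than wildtype, by 1.40 and 1.05, and their wildtype levels were -5.86 and -2.30. Rhox10 differed by 0.61, Rhox9 by 0.16, Rhox2c by 0.10, Rhox6 by -0.12 and Rhox5, the brightest of the cluster's probes, by -0.20. Mageb16, at 2.54, 2.60 and 2.41, and Nxf2, at -4.87, -2.26 and -5.05, were also within 2-fold of wildtype.

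**Figure D2:**
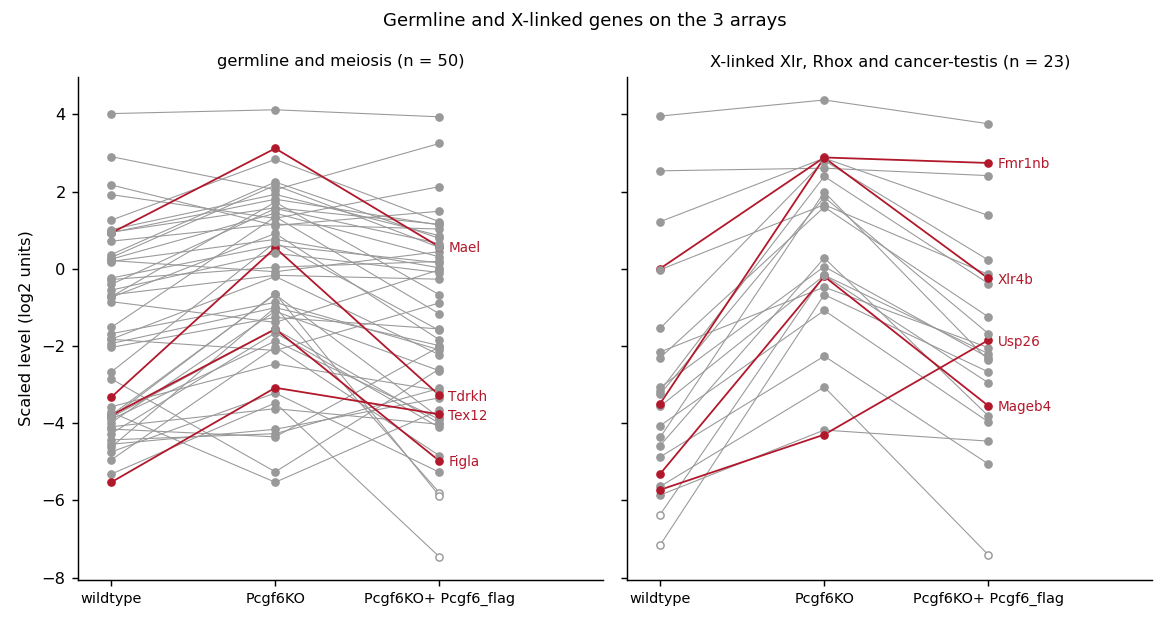
Levels of germline and X-linked list members on the 3 arrays, in log2 units relative to the 75th percentile of each array; each line is 1 gene, and open points were not well above background. Tdrkh returns to its wildtype level on the array labelled Pcgf6KO+ Pcgf6_flag (-3.33 and -3.28), Xlr4b and Mageb4 lie between the other arrays, and Fmr1nb lies at 2.74, near its Pcgf6KO level of 2.88.

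Genes of fibroblasts, the cell type of the feeder layer, were the list with most members below wildtype. In the fibroblast extracellular matrix list, 34 genes were measured, 17 of 24 on both arrays were 2-fold lower and 0 higher, and 9 of the other 10 were lower by their bound. The median difference was -2.37. Among all genes, 8.61% of dimmer and 0.97% of brighter ones were lower. By their bound, 296 of all 1134 genes above background on wildtype alone were lower. Col3a1, a chain of type III collagen, read 0.43, -2.04 and -4.86, a difference of -5.29 or 39.2-fold. Col1a2 read 2.60, 0.60 and -2.13, the calcium-binding S100a4 read 2.11, -0.41 and -2.49, and the proteoglycan Dcn read 0.69, 0.49 and -2.14. Lox, which cross-links collagen, was at least 34.3-fold lower, and the growth factor receptor Pdgfrb at least 7.80-fold. In each of these the array labelled Pcgf6KO+ Pcgf6_flag lay below both wildtype and Pcgf6KO.

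Other matrix genes stayed within 2-fold of wildtype. Fibronectin (Fn1) differed by 0.01, Sparc by -0.14, Fbln1 by -0.05 and Mfap5 by -0.20. The intermediate filament gene Vim differed by -0.72 and Igfbp7 by -0.67. Mfap4 was the highest member, with a difference of 0.71.

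The other fibroblast lists were low too. Among mesenchymal transcription factors, 8 of 12 measured on both arrays were lower and 0 higher, 5 of 8 others were lower by their bound, and the median difference was -1.55. Twist2 read -0.77, -1.78 and -4.65, Zeb2 read -1.83, -3.37 and -4.61 and Tbx15 read -2.36, -4.09 and -4.95. Prrx1, a limb-bud mesenchyme factor, was at least 20.7-fold lower, while Msx1 differed by -0.02. Among proliferins, keratinocyte genes and others of that list, 5 of 8 were lower and 8 of the other 10 were lower by their bound, with a median of -2.46. The proliferin Prl2c1 read 1.90, -3.15 and -2.88 and Lce1h, of the cornified envelope, read 0.55, -3.53 and -3.21, so that these were as low on Pcgf6KO. Prl2c and Lce genes also come in near-identical copies. Krt14 differed by -0.10 and Krt5 by 0.37. The shares to hold beside these counts are 8.61% lower among all dimmer genes and 0.97% among brighter ones. By their bound, 296 of all 1134 genes above background on wildtype alone were lower.

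Contractile genes divided. Acta2, the mechanical-stress gene Ankrd1 (1.04, -1.68 and -3.81), the receptor tyrosine kinase Axl (0.91, -0.54 and -2.46) and Cald1 (1.30, 1.02 and -0.22) were 2-fold lower, and Cav1 was 2-fold higher at 1.04, or 0.91 with median scaling. The actin-binding genes Flna, Actn1, Cnn1, Cnn2, Tpm1, Tpm2, Myl9 and Tagln differed by between -0.91 and 0.22. Inhba and Tm4sf1, given above, were lower by their bound, and the median of the 20 genes was -0.44. Of the chemokine and cytokine list, 6 of 14 genes on both arrays were lower and 0 higher, and 1 of 4 others, the chemokine Ccl7, was lower by its bound, at least 37.6-fold. The macrophage growth factor Csf1 read 1.88, -0.56 and -2.91 and the chemokine Ccl2 read 0.68, -2.61 and -3.59, while Lif differed by 0.13, Cxcl12 by -0.12 and Kitl by 0.08. Among all dimmer genes 8.61% were lower and 9.24% higher, and among brighter ones 0.97% and 0.59%. By their bound, 296 of all 1134 genes above background on wildtype alone were lower.

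The feeder fibroblast markers used to check cell types are all members of the matrix or mesenchymal factor lists above. They therefore repeat those values and are not separate support. Of 14 feeder fibroblast markers on the array, 13 were above background on wildtype, 11 on Pcgf6KO and 8 on the array labelled Pcgf6KO+ Pcgf6_flag. Their summed signal, in units of the 75th percentile, was 23.6, 11.03 and 4.04. The 6 markers below background on the array labelled Pcgf6KO+ Pcgf6_flag were Col5a2, Lox, Postn, Lum, Pdgfrb and Prrx1. Fewer cells of a type and less RNA per cell cannot be told apart in such bulk RNA, and the part of the feeder layer in the differences was not tested. All 12 embryonic stem cell markers were above background on each array, with sums of 152, 140 and 153. The source field of the labels also names muscle, and the muscle markers were mixed. Of 15, 10 were above background on wildtype, 11 on Pcgf6KO and 10 on the array labelled Pcgf6KO+ Pcgf6_flag, and their summed signal was 9.33, 11.55 and 7.61. The myogenic factor Myod1 read 1.40, 1.40 and 1.58, and the developmental myosin Myh8 read 0.54, 1.76 and 0.04, whereas Myog, Myf5, Myh1 and Ckm were not well above background on any of the 3 arrays.

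**Figure D3:**
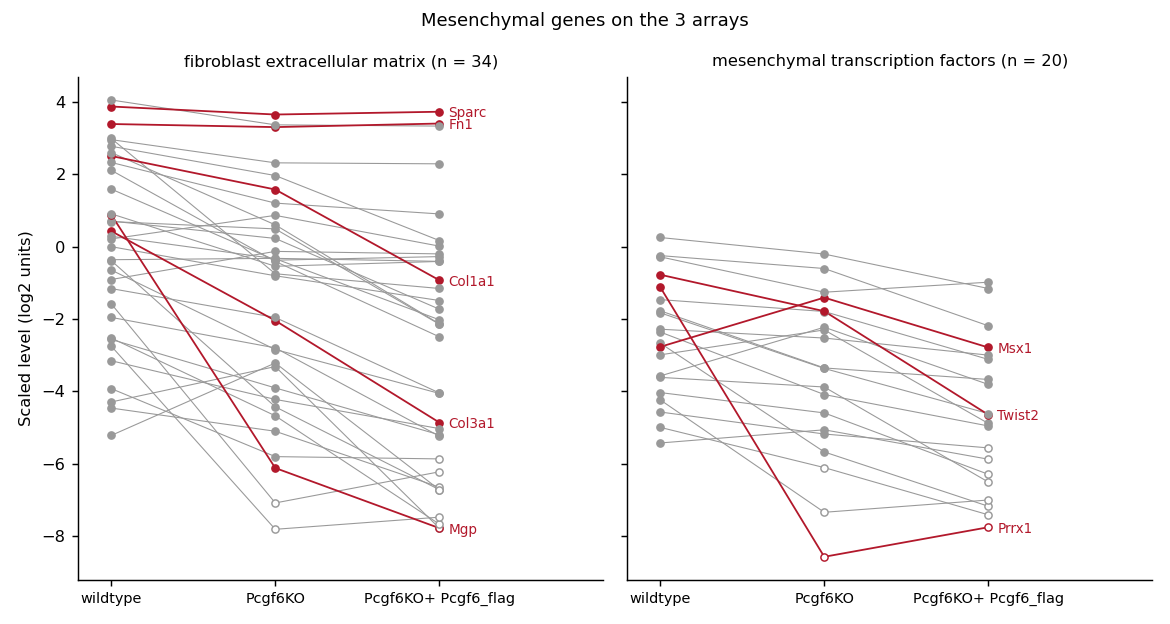
Levels of fibroblast matrix genes and mesenchymal transcription factors on the 3 arrays, in log2 units relative to the 75th percentile of each array; each line is 1 gene, and open points were not well above background. Col1a1, Col3a1 and Twist2 step down from wildtype through Pcgf6KO to Pcgf6KO+ Pcgf6_flag, whereas Fn1 differs by 0.01 and Sparc by -0.14.

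Lineage genes of the embryo were mostly near or below wildtype. Of the primitive and visceral endoderm list, 8 of 19 genes measured on both arrays were lower and 0 higher, 4 of 5 others were lower by their bound, and the median was -0.97. Among all dimmer genes 8.61% were lower and 9.24% higher. Of all 1134 genes above background on wildtype alone, 296 were lower by their bound. The endocytic adaptor Dab2 read -2.67, -1.41 and -4.88, the lineage factor Gata6 read -2.40, -2.56 and -3.72, and the activin antagonist Fst read 0.70, 0.10 and -1.18. The basement membrane collagens Col4a1 and Col4a2, which fibroblasts also make, differed by -1.20 and -2.13, whereas the laminins Lamb1 and Lamc1 differed by -0.22 and -0.40 and Apoe by 0.06. Primitive endoderm markers above background numbered 7 of 8 on wildtype, 7 on Pcgf6KO and 4 on the array labelled Pcgf6KO+ Pcgf6_flag, and their summed signal was 1.06, 1.08 and 0.44. These markers are all on the endoderm list, so they repeat its values.

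Hox genes, which pattern the body axis and are classic Polycomb targets, were often detected on wildtype only. Of 32 measured on at least 1 array, 20 were above background on wildtype alone and 1, Hoxa2, on the array labelled Pcgf6KO+ Pcgf6_flag alone. Among the 11 on both, 4 were lower and 2 higher. By their bound 11 were lower and 1 higher. Among all dimmer genes 8.61% were lower and 9.24% higher. Of all 1134 genes above background on wildtype alone, 296 were lower by their bound. The lower genes included Hoxd13 (-1.10, -1.87 and -4.24), Hoxb9 (-1.80, -2.79 and -3.92) and Hoxa7 (-1.29, -1.88 and -2.97). Hoxc5 and Hoxa13 were higher, by 1.45 and 1.32. Hoxb8, at least 6.77-fold lower, and Hoxc9, at least 5.00-fold lower, had the largest bounds. Fibroblasts of the embryo express many Hox genes, the feeder marker sums were 23.6 and 4.04 on the 2 arrays compared, and the lowest signal above background differed, at 52.7 and 103. Their part in the Hox values was not tested.

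Imprinted genes, expressed from the copy of 1 parent, were lower in 7 of 32 and higher in 0, with a median of -0.35. Among all genes, 8.61% of dimmer and 0.97% of brighter ones were lower. Some of the 7 calls did not hold throughout. Another probe of Asb4 gave 0.76, and its probes averaged -0.21. Rtl1 gave -0.72 with another background correction, and Ascl2 gave -0.91 without scaling. Dcn, which is also a fibroblast gene, was lowest, followed by the growth factor Igf2 at -2.65, -2.88 and -5.01. Cdkn1c, a cell-cycle inhibitor, read 2.63, 2.70 and 1.63 and Nap1l5 read -2.50, -1.60 and -3.58. Meg3, Igf2r, Nnat, Phlda2 and Mcts2 differed by between -0.09 and 0.05.

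Of 16 primed epiblast genes, 3 were lower and 1 higher, and the list's median was -0.32. Sox3 read 1.02, 0.05 and -1.54, a difference of -2.56, the Wnt effector Lef1 read -0.97, -2.02 and -2.40 and Pou3f1 read 2.89, 2.53 and 1.88. Fgf5 was higher, at -3.38, -1.54 and -2.26, and Otx2 differed by 0.74. The Pou3f1 difference was under 2-fold with another background correction (-0.93) and without scaling (-0.77), and that of Fgf5 was 0.97 with the other background correction. Neural genes went both ways, with 4 of 14 lower, among them Slitrk5 (-0.24, 0.74 and -2.74), and 3 higher, led by the Notch target Hes5 (-4.08, -3.10 and -2.13). Over all dimmer genes 8.61% were lower and 9.24% higher. The largest neural difference was that of Sox1, at -2.95, but another of its probes gave 2.32, so it has no settled direction. Nkx2-2 was at least 2.45-fold lower.

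Mesendoderm genes were likewise split, with 3 of 12 higher, among them Lhx1, and 2 lower, Mesp2 and Wnt3, whose differences without scaling were -0.90 and -0.91. The shares over all dimmer genes were 9.24% higher and 8.61% lower. Pdgfra, also on the fibroblast and endoderm lists, was at least 2.04-fold lower. The Kdr difference of 1.23 was not shared by all its probes, whose mean was 0.43. Of 19 trophoblast genes, 2 were lower and 0 higher: Cdx2, the trophectoderm factor, read -2.33, -1.82 and -4.64, and Ascl2 read 1.28, 1.24 and 0.13, a difference of -0.91 without scaling. By their bound 2 were lower, Plac1 at least 3.77-fold and Prl3d1 at least 2.18-fold, and 1 was higher, Tpbpa, at least 4.17-fold, while Gata3, Hand1, Krt18, Eomes and Tfap2c stayed within 2-fold of wildtype. Of the 2-cell stage list 9 genes were measured, and the 5 on both arrays differed by between -0.13 and 0.26. Of the 4 on wildtype alone, 2 were lower by their bound. These were Zscan4f and Zscan4c, near-identical copies that mark a rare state of stem cells, at least 3.85-fold and 2.32-fold lower than wildtype. They read -0.62 and -1.94 on Pcgf6KO.

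The pluripotency network was near wildtype. Of its 30 genes, 2 were higher and 1 lower, and the median was -0.06. Pou5f1 read 4.62, 4.42 and 4.36, Sox2 read 3.03, 2.96 and 2.96, and Nanog read 4.95, 4.85 and 5.33. Prdm14, which guards the naive state and primes germ cell fate, was higher at -1.51, -0.80 and 0.15, a difference of 1.66, and Tcl1 was higher by 1.15. Gbx2 was lower at 2.68, 1.35 and 1.59, a difference of -1.09 that was -0.85 without scaling. Klf2, Tfcp2l1 and Esrrb were above wildtype by 0.48, 0.43 and 0.34, within 2-fold.

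Other chromatin regulators gave few large differences, but so did bright genes at large. Of all genes at or above the median signal, 1.56% passed 2-fold. Read from the brightest probe, none of 17 subunits of other PRC1 complexes or 13 of PRC2 passed 2-fold in either direction. The same held for 20 enzymes and cofactors of DNA methylation and H3K9 methylation. The medians of the 3 lists were -0.05, 0.13 and -0.06. The furthest were Bmi1 at -0.78 and Bcor at 0.68 for PRC1, Ezh1 at 0.76 for PRC2, and Dnmt3b, the de novo DNA methyltransferase, at -0.50. Another probe of Bmi1 gave -1.12 and another of Ezh1 gave 1.34, both past 2-fold. The probes of Dnmt3b ran from -0.50 to 0.67, so it has no settled direction. The catalytic subunit Ezh2 differed by 0.07, Suz12 by 0.13, Dnmt1 by -0.21 and Setdb1 by -0.38.

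**Figure D4:**
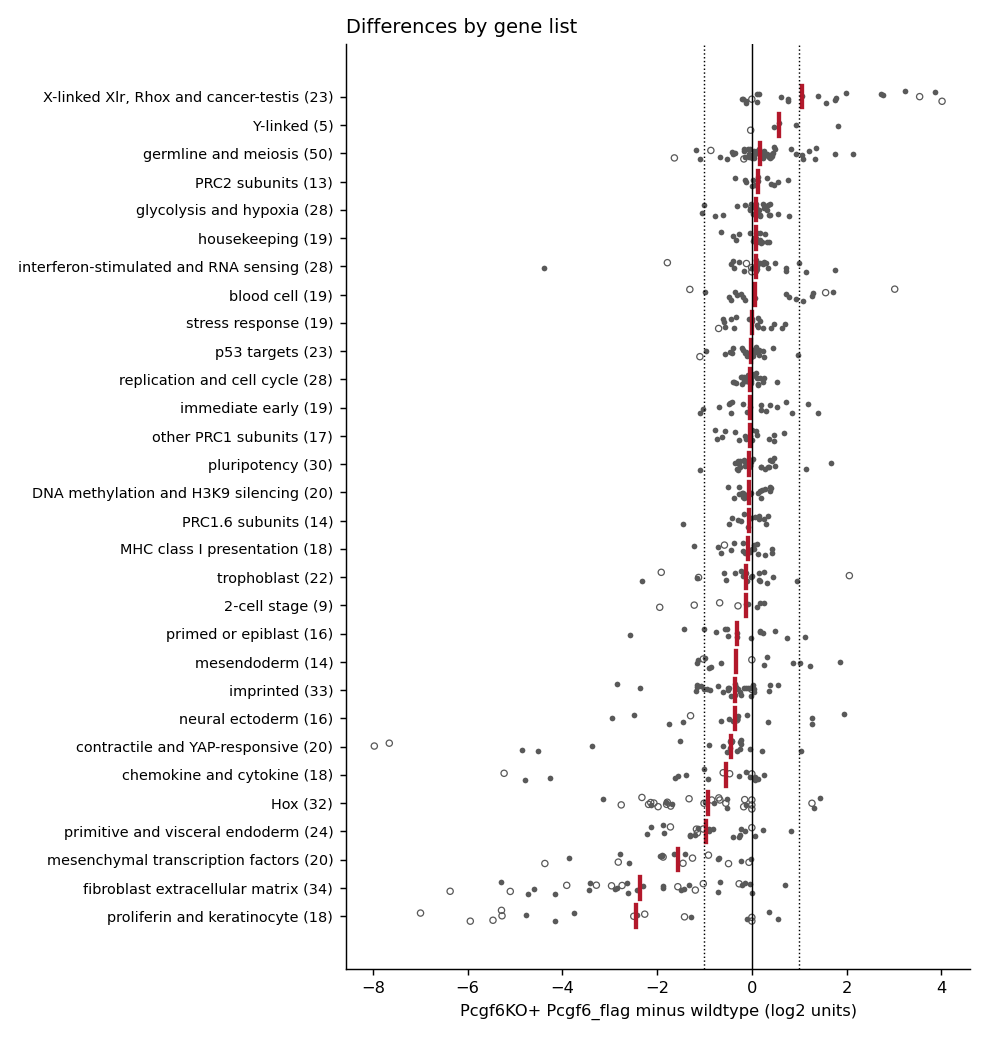
Differences between the array labelled Pcgf6KO+ Pcgf6_flag and wildtype, in log2 units, for the members of the 30 gene lists; filled points are genes above background on both arrays, open points are bounds, and each red bar is the list's median. The X-linked list lies furthest above 0, with a median of 1.05, and the proliferin and fibroblast matrix lists furthest below, at -2.46 and -2.37.

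Immune and blood lists were mixed. Of 24 interferon-stimulated genes, 2 were higher, Xaf1 (-1.77, -0.46 and -0.01) and the transcription factor Irf1 (0.18, 1.16 and 1.32), and 1 lower, Ifi27 (0.45, -2.21 and -3.95). Rsad2, an antiviral enzyme, was at least 3.44-fold lower. Isg15, Ifit1, Gbp2 and Psmb8 lay within 0.18 of wildtype. Among 17 genes of MHC class I presentation only Tap1, a peptide transporter, was past 2-fold, at -1.23, or -0.99 without scaling. Of the blood cell genes, 4 of 16 were higher, Ms4a10, Cfp, Gata1 and Inpp5d. Over all dimmer genes 9.24% were higher. Gata1 gave 0.96 with another background correction and Inpp5d 0.95 with median scaling, and Ptprc, the pan-leukocyte marker, was at least 2.95-fold higher but close to background. Lyz2, a myeloid lysozyme, was at least 2.48-fold lower. Of 8 blood markers, 4 were above background on wildtype and 5 on each of the other arrays. The T-cell kinase Lck read 1.28, 1.17 and 1.05 and the macrophage receptor Csf1r read 0.22, 0.39 and 1.01, while Spi1, Cd79a and Hbb-bt were not well above background on any array. The Y-linked genes Ddx3y and Eif2s3y read 0.36, 0.93 and 1.28, and 0.05, 0.56 and 0.52.

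Lists of general cell state set the baseline. None of 28 replication and cell-cycle genes, 18 stress genes or 19 housekeeping genes passed 2-fold on both arrays, and their medians were -0.04, 0.00 and 0.09. Most of these genes are bright, and 1.56% of all genes at or above the median signal passed. Of 22 p53 target genes on both arrays none passed, and the death receptor Fas, above background on wildtype only, was at least 2.14-fold lower, with Cdkn1a, the cell-cycle brake, at -0.40 and Mdm2 at 0.08. Of 27 glycolysis and hypoxia genes, Adm, a hypoxia-induced peptide, differed by -1.05, and the angiogenic factor Vegfa was at the 2-fold edge; neither reached 2-fold with another background correction or without scaling. Immediate early genes were higher for Zfp36 and Egr1, by 1.39 and 1.18, and lower for Egr2 and Fosl2. Egr2 gave -0.85 without scaling, and the probes of Fosl2 averaged -0.01. Actb, Gapdh, Rplp0 and Hprt differed by 0.10, 0.18, 0.36 and 0.28.

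The Pcgf6KO level was set beside each difference among the brighter genes past 2-fold. These numbered 42 higher and 69 lower before clone names were left out. Groups were picked by a cut of 0.3 log2 units, with up to 10 genes taken each way. These comparisons share arrays, so the levels are given as they stand. In the first group Pcgf6KO lay within 0.3 log2 units of wildtype and the array labelled Pcgf6KO+ Pcgf6_flag alone stood apart. The higher members were led by the histone gene H3c3 (0.03, 0.28 and 1.40), which has near-identical copies, Selenov (0.35, 0.35 and 1.70), Sart1, a splicing factor (0.41, 0.41 and 1.71), Nhlh1 (0.57, 0.83 and 1.73) and Ddah2 (1.93, 2.20 and 3.03). Ddah2 was under 2-fold, at 0.98, with median scaling. Zfp707 belonged there by its brighter probe, 1.31, and not by the other, 0.30. The lower members were led by Tmem54 (2.17, 2.16 and 0.28), Pwwp2b (1.54, 1.31 and -0.29), the secreted protein Cthrc1 (1.78, 1.96 and 0.07), Anxa5 (1.91, 1.67 and 0.43), the phosphatase Dusp9 (2.57, 2.72 and 1.11) and Lrp2, an endocytic receptor of endoderm (1.65, 1.90 and 0.44), at -0.98 without scaling.

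In the other group the array labelled Pcgf6KO+ Pcgf6_flag lay within 0.3 log2 units of Pcgf6KO and both stood apart from wildtype. Only 3 genes were higher in this way: Fmr1nb, Irf1 and Trappc2, and the other probe of Trappc2 gave 0.11. The lower members were 8, led by Timp3 (1.59, -0.37 and -0.27), the vitamin D carrier Gc (1.94, 0.25 and 0.27), Exoc3l (1.39, -0.16 and -0.06), Thy1, a fibroblast marker (2.33, 1.20 and 0.91), Smpdl3b (2.41, 1.40 and 1.25) and Arrdc3 (1.93, 1.09 and 0.81). The differences of Smpdl3b and Arrdc3 were -0.92 and -0.88 without scaling.

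Probes without a gene name behaved differently from named ones. Over all probes on both arrays, 2816 of 32641 (8.63%) were 2-fold higher and 1299 (3.98%) 2-fold lower. The 18575 probes matched to a gene were balanced, with 864 higher and 822 lower. The 14066 probes without a match had 1952 higher (13.9%) and 477 lower (3.39%), and a median difference of 0.13. Of them, the 7968 probes that the array names by a genomic interval, designed for intergenic noncoding RNA, had 1121 higher and 301 lower. When probes on both arrays were split into 4 equal classes by signal, unnamed probes were higher more often than named ones in each class. In the dimmest class 21.2% of unnamed probes were higher, against 15.05% of named ones, and in the brightest class 1.47%, against 0.16%. The share of called probes that were higher moved from 68.4% to 57.0% with median scaling and 84.2% without scaling.

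**Figure D5:**
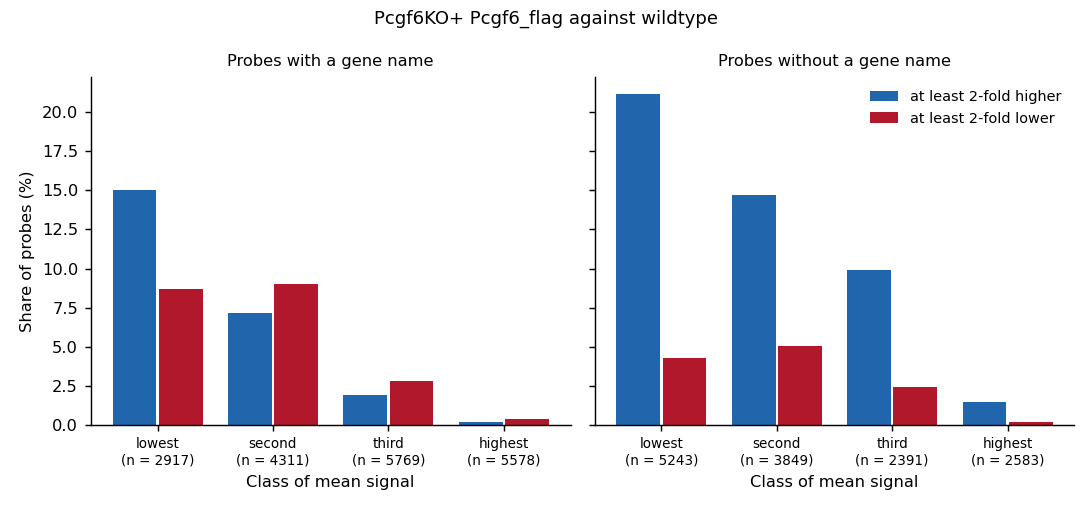
Share of probes past 2-fold higher or lower on the array labelled Pcgf6KO+ Pcgf6_flag, in percent of probes above background on both arrays, for named and unnamed probes in 4 classes of signal. Unnamed probes are higher more often than named ones in each class, 21.2% against 15.05% in the dimmest and 1.47% against 0.16% in the brightest.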

How the data were processed

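Total RNA of 3 cell groups was labelled with Cy3 and read on 1-colour Agilent arrays, 1 array a group. Per the file headers, the deposited spot intensity (processed signal) came from Agilent Feature Extraction 11.5.1.1, already background-corrected; the submitters' processing notes name version 10.7. The series value table equalled the processed signal of all 55249 single-spot probes within 1e-06, with no log or centring; its column medians were 243, 273 and 313 for wildtype, Pcgf6KO and Pcgf6KO+ Pcgf6_flag. Control spots and 141, 158 and 192 outlier spots were left out, no spot was saturated, and spots of a probe were averaged. Log2 intensity minus the array's 75th percentile (3917, 4292 and 4619) was compared. Genes were named by RefSeq accession (26762 of 55681 probes), and a gene was read from its brightest measured probe. The number of arrays limits precision: with 1 array a group, no test was made. Calls were set at 2-fold.

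Named genes were Pcgf6, the 15 highest and 15 lowest among brighter genes without clone names, the 6 largest bounds each way, up to 5 largest differences of each of the 30 lists, up to 10 genes each way by Pcgf6KO level, and 10 fixed genes; list members of small or contrasting difference were named after their values were seen. The members and lists were chosen with earlier results of these data known. Counting was tested on simulated data. Alternatives were normexp background correction of the median spot signal (limma 3.58.1, R 4.3.3), quantile, median or no scaling, other filters, probe averaging and thresholds of 1.5-fold and 3-fold. Tables were made with Python 3.11.15, numpy 2.4.6 and pandas 2.3.3. A few genes that this rule names are not reported here.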

Additional observations from a re-analysis of the deposited data

How the results depend on the processing

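No paired analysis was possible because each group is a single array. Slide could not be used as a block, since each slide holds 1 of the 2 arrays. Quantile normalization, median scaling, the 75th percentile over probes measured on both arrays, the deposited value table, keeping outlier spots and averaging the probes of a gene left the counts within 1.5 times of those above. With normexp background correction 1834 probes and 458 genes were 2-fold higher. Without scaling 785 probes were lower, and 1077 genes were higher and 449 lower. Without a filter on dim probes 7089 probes were higher and 3503 lower, and 1773 genes were higher and 1502 lower. With bright probes only the counts were 393 and 242 probes and 101 and 157 genes. At 1.5-fold they were 5620 and 3402 probes and 1555 and 1548 genes, and at 3-fold 966 and 393 probes and 220 and 260 genes. The median over all genes moved to -0.14 with median scaling and to 0.22 without scaling. Of 203 named genes measured on both arrays, 165 kept their side of the 2-fold threshold under each alternative that gave a value. No named gene changed direction past the threshold. Medians of 16 of the 30 lists, all close to 0 apart from mesendoderm, changed sign under at least 1 alternative; the fibroblast matrix median ran from -2.50 to -1.42 and the Hox median from -1.68 to -0.63. Low signal limits the single values: most genes past 2-fold were dim, and of 194 with several probes 162 had all probes on the same side of 0 and 101 had all past 2-fold.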
